A study of Mus musculus with 12 samples.

Results

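The expression of 10 genes of lipid droplets and triglyceride metabolism was examined in mouse spinal cord white matter: Plin2, Plin3, Plin4, Hilpda, Dgat1, Dgat2, Pnpla2, Mgll, Fabp4 and Fabp5. They were chosen by symbol for the function of their proteins, with earlier results of these data known. All 10 were found by their Ensembl identifiers among the 46078 genes of the count table. The mice were C57Bl6 animals of 2 ages, young (6 weeks) or middle-aged (8 months). White matter was either naïve or had been injected 72 h earlier with lysolecithin, a detergent-like lipid that strips myelin from axons at the injection site. Ventrolateral white matter was cut out by laser capture, and tissue of 5 mice was pooled for each library. Each combination of age and lesion had 3 pools, which made 4 groups. None of the sources used here describes a white matter sample injected with vehicle, so the lesion and the injection itself cannot be told apart. Nor do they state that the 3 pools of a group came from different mice. The p-values therefore measure the spread between these pools, which may be in part technical.

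A lipid droplet is a store of neutral lipid, triglycerides and sterol esters, wrapped in a single layer of phospholipid and coated by proteins of which the perilipins are the best known. Triglycerides are completed by the DGAT enzymes and taken apart again by a chain of lipases that ends with monoacylglycerol lipase, while fatty acid binding proteins carry the fatty acids through the cytoplasm. Macrophages and microglia that clear myelin fill with such droplets and are then called foam cells.

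The libraries held 9834447 to 12807437 counts each, and 3 counts, taken as the floor of detection, equalled 0.220 to 0.323 CPM (counts scaled to a common library size, here with TMM factors). All 10 genes passed the filter on low counts, Fabp4 only through its counts in injured tissue. The tissue label was met by 5 oligodendrocyte markers, among them Mbp and Mog, which were present in all pools and all 5 of which fell with injury at both ages. In the same contrasts all 6 pan-myeloid markers, all 4 markers of recruited monocytes and all 4 fibroblast markers rose, and 4 of 5 astrocyte markers fell. In bulk tissue, fewer cells of a type and less RNA per cell cannot be told apart. Young injured replicate 1 stood apart in having 1350 counts (99.1 CPM) of 4 skeletal muscle markers, against at most 0.620 CPM in any other pool. Of 5 adipocyte markers, none passed the filter, and their summed counts were 0 in every young naïve pool and at most 15 in any pool.

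With injury the 10 genes moved in both directions. In young mice 4 of the 10 rose (Plin2, Hilpda, Fabp4 and Fabp5), 3 fell (Plin3, Dgat2 and Mgll) and 3 did not pass the test (edgeR's quasi-likelihood test, Benjamini-Hochberg adjusted p under 0.05 over 15866 genes). In middle-aged mice 5 rose and 4 fell, Pnpla2 joining the first and Plin4 the second, and Dgat1 alone did not pass. The background was high: 28.3% of all genes tested rose and 26.3% fell with injury in young mice, and 29.2% rose and 29.3% fell in middle-aged mice. Fabp4 could only be called higher, since it passed the filter through the injured pools alone. Of the other 9 genes, 3 rose and 3 fell in young and 4 rose and 4 fell in middle-aged mice, counts that are not far above the background in young mice. In both contrasts 8 of the 10 genes had naïve and injured pools that did not overlap, as did 67.2% of all genes tested in young and 61.1% in middle-aged mice. The median log2 fold change of the 9 genes was 0.22 in young and 0.07 in middle-aged mice, beside medians of 0.0005 and -0.032 over all genes tested. The sizes and directions of single genes are therefore described rather than their number. All fold changes are log2 values from the same fit, injured minus naïve or middle-aged minus young, with a standard error (SE). The fit does not give this SE directly. It is the size of the log2 value divided by the square root of its F value in the quasi-likelihood test. It is therefore approximate, and for genes with few counts in a group, such as Cd36 in naïve pools, it can be too small.

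**Figure D1:**
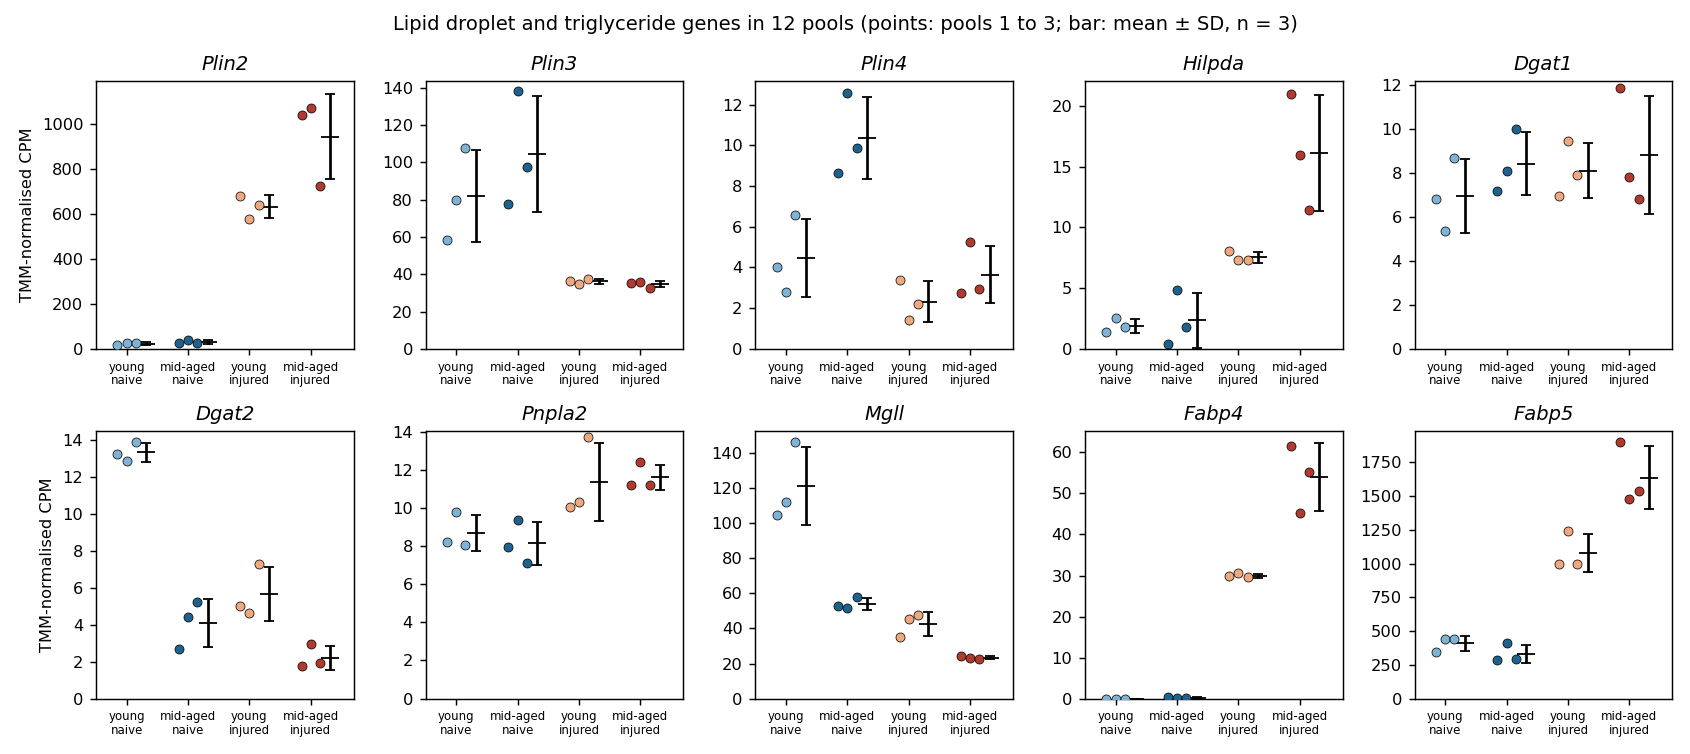
TMM-normalised CPM (linear axes from 0, a scale of its own for each gene) of the 10 genes in the 4 groups; points are the 3 pools of a group in replicate order and the bar beside them is the mean ± SD. Plin2 and Fabp4 sit near the axis in all naïve pools and at 578.5 to 1069 and 29.6 to 61.5 CPM in the injured pools, while Mgll and Dgat2 are highest in the young naïve pools.

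Among the perilipins, Plin2 was the gene with the largest increase. Plin2 (ENSMUSG00000028494; GRCm38, chromosome 4, 86648386 to 86670060, minus strand) encodes the coat protein found on the droplets of nearly all cells. In young naïve replicates 1 to 3 it had 15.4, 24.8 and 26.9 CPM, and in young injured replicates 678.5, 578.5 and 638.8 CPM. In middle-aged naïve replicates it had 26.1, 40.6 and 26.0 CPM, and in middle-aged injured replicates 1038, 1069 and 724.1 CPM. Every injured pool lay more than an order of magnitude above every naïve pool, and the naïve pools of the 2 ages overlapped. The ratio of the means was 28.3 at the young age (log2 fold change 4.82 ± 0.25 SE, adjusted p = 1.64e-09) and 30.5 at middle age (4.94 ± 0.25 SE, adjusted p = 1.26e-09). The rise of Plin2 held in all 20 alternative analyses at each age. Of the sequence positions of Plin2 transcripts, 5.16% were shared with other genes, chiefly the pseudogene Gm12551, which had at most 17 counts in a pool. The 21 sharing genes found in the count table together had at most 12423 counts in a pool.

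Plin3 went the other way. It encodes TIP47, a perilipin that also occurs free in the cytoplasm and moves onto young droplets (chromosome 17, 56277476 to 56292873, minus strand). The young naïve pools held 58.3, 80.0 and 107.5 CPM and the young injured pools 36.6, 34.8 and 37.5 CPM. The middle-aged naïve pools held 77.7, 138.4 and 97.5 CPM and the middle-aged injured pools 35.4, 36.0 and 32.7 CPM. The 6 injured pools spanned only 32.7 to 37.5 CPM and all lay under the lowest naïve pool. Plin3 fell by 1.17 ± 0.22 SE on the log2 scale in young mice (adjusted p = 0.000367) and by 1.59 ± 0.22 SE in middle-aged mice (adjusted p = 2.28e-05). Of its sequence positions 2.96% were shared with other genes, 1190 in number. How reads from such positions were counted is not known.

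The ratio of Plin2 to Plin3 counts within a library does not depend on how libraries are scaled. Its log2 value was -1.998 to -1.69 in young naïve, -1.91 to -1.57 in middle-aged naïve, 4.05 to 4.21 in young injured and 4.47 to 4.89 in middle-aged injured pools. Injury moved it by 5.98 in the young and 6.49 at middle age (mean 6.24, 2-sided exact permutation test within ages, p = 0.005, adjusted over 3 ratios p = 0.0075). The unadjusted p is the smallest that the 400 arrangements can give. The other ratios were Dgat2 to Dgat1 and Fabp5 to Fabp4. The last had to differ, with Fabp4 near 0 in naïve pools, and its small p lowers the adjusted value given here. Plin2 made up 19.1% to 23.1% of the Plin2, Plin3 and Plin4 counts in young naïve and 19.5% to 23.2% in middle-aged naïve pools. After injury its share was 94.1% to 94.4% in young and 95.3% to 96.5% in middle-aged pools. The perilipin counts thus passed from mostly Plin3 to nearly all Plin2 in every pool of both ages.

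Plin4, which encodes a large perilipin known from fat, muscle and heart (chromosome 17, 56100591 to 56109803, minus strand), was a rare transcript. Its counts were 44, 31 and 61 in young naïve, 90, 120 and 123 in middle-aged naïve, 46, 18 and 29 in young injured and 33, 66 and 34 in middle-aged injured pools. In CPM the middle-aged naïve pools (8.64 to 12.6) lay above all other pools (1.40 to 6.56), whereas the young naïve and young injured pools overlapped. Plin4 fell with injury in middle-aged mice (log2 fold change -1.498 ± 0.375 SE, adjusted p = 0.00328). In young mice its value of -0.93 ± 0.39 SE did not pass (adjusted p = 0.0596). Without young injured replicate 1, the pool with muscle transcripts, the young value was -1.30 (adjusted p = 0.0274), and without young naïve replicate 2 it was -1.17 (adjusted p = 0.0298). The Plin4 exons share bases with Hdgfl2 on the opposite strand, and reads of the pair cannot be told apart if counting ignored strand. Plin5, which starts 1797 bases from Plin4, had at most 2 counts in any pool, and Plin1 at most 1.

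Hilpda encodes a small droplet protein that is induced by low oxygen and by fatty acids and that inhibits the lipase ATGL (chromosome 6, 29272488 to 29275446, plus strand). It had 1.37, 2.54 and 1.83 CPM in young naïve and 8.08, 7.29 and 7.30 CPM in young injured pools. In middle-aged naïve pools it had 0.384, 4.83 and 1.84 CPM, the first of which rested on 4 counts, and in middle-aged injured pools 21.0, 16.0 and 11.4 CPM. All 6 injured pools were above all 6 naïve pools, and the middle-aged injured pools were the highest of all. Hilpda rose by 1.98 ± 0.52 SE (log2) in the young (adjusted p = 0.00488) and by 2.80 ± 0.51 SE at middle age (adjusted p = 0.000279). The ratios of the means were 3.95 and 6.86. Without middle-aged naïve replicate 2, the highest naïve pool, the middle-aged value was 3.80, and it passed the test in all 20 alternatives.

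Plin2 and Hilpda are droplet proteins that rose together, so their promoters are shown, 250 bases before to 50 bases after the RefSeq start site on GRCm38.p6. The letters searched were ACGTG, a form of the core of the hypoxia response element, on both strands. Another form, GCGTG, was not searched and is left unmarked where it occurs. The 6-letter word CACGTG, an E-box, contains the letters searched on both strands and so counts as a match on each. Capitals mark the matches. Plin2 lies at chr4:86670010-86670309 on the minus strand, and the second of the Hilpda starts, whose window holds a match, at chr6:29272376-29272675 on the plus strand.
Plin2: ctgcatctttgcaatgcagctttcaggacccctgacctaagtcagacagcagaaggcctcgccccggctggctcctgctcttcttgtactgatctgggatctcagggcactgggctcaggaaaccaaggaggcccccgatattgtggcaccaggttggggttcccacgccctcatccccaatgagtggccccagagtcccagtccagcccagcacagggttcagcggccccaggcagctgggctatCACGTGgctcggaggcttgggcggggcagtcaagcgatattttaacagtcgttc
Hilpda: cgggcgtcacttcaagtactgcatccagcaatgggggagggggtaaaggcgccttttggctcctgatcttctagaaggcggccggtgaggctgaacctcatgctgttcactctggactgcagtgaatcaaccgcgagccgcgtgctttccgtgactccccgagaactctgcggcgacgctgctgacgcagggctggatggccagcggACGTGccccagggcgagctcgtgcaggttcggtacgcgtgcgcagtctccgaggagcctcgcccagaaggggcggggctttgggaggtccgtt
The Plin2 match starts 4 bases before its start site and the Hilpda match 43 bases before. RefSeq promoters were found for 6 of the 10 genes, and 3 of the 6 held the letters. The other holder was Mgll, which fell with injury, with CACGTG 44 bases before one start. The same letters stand in 19.6% of 32851 mouse promoters of this length, so a match here is a description of the sequence and no more.

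The 2 DGAT enzymes, which are unrelated in sequence, join the last fatty acid to diacylglycerol to give a triglyceride. Dgat2 (chromosome 7, 99153658 to 99182719, minus strand) had 13.2, 12.9 and 13.9 CPM in young naïve and 4.99, 4.65 and 7.30 CPM in young injured pools. It had 2.69, 4.41 and 5.20 CPM in middle-aged naïve and 1.74, 2.96 and 1.90 CPM in middle-aged injured pools. The young naïve pools thus lay well above the rest, and the middle-aged naïve and injured pools overlapped. After injury Dgat2 fell by 1.24 ± 0.28 SE on the log2 scale in young mice (adjusted p = 0.00165) and by 0.90 ± 0.31 SE in middle-aged mice (adjusted p = 0.0218). The middle-aged call was lost without middle-aged naïve replicate 3 (-0.68, adjusted p = 0.101), without middle-aged injured replicate 1 (-0.75, adjusted p = 0.0918) and without middle-aged injured replicate 3 (-0.79, adjusted p = 0.0756). It was also lost when only the pools compared were fitted (-0.91, adjusted p = 0.0866).

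Dgat1 (chromosome 15, 76502015 to 76511953, minus strand) stayed within 5.35 to 11.9 CPM over the 12 pools, with overlap between all 4 groups. Its log2 fold change with injury was 0.22 ± 0.26 SE in young mice (adjusted p = 0.497) and 0.07 ± 0.26 SE in middle-aged mice (adjusted p = 0.842), and at 59 to 143 counts a pool a small change could be missed. The log2 ratio of Dgat2 to Dgat1 counts was 0.67 to 1.26 in young naïve, -1.41 to -0.87 in middle-aged naïve, -1.02 to -0.11 in young injured and -2.74 to -1.39 in middle-aged injured pools. Dgat2 counts therefore exceeded Dgat1 counts only in the 3 young naïve pools. Injury moved the ratio by -1.495 in young and -0.91 in middle-aged mice (mean -1.21, exact permutation test within ages, p = 0.01, adjusted p = 0.01).

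Of the lipases, Pnpla2 and Mgll act at opposite ends of the chain. Pnpla2 (chromosome 7, 141455198 to 141460743, plus strand) encodes ATGL, which removes the first fatty acid of a triglyceride. It had 8.20, 9.79 and 8.07 CPM in young naïve, 7.97, 9.34 and 7.12 CPM in middle-aged naïve, 10.1, 10.3 and 13.7 CPM in young injured and 11.2, 12.4 and 11.2 CPM in middle-aged injured pools. All injured pools were above all naïve pools, by small margins in young mice. The log2 fold change was 0.51 ± 0.20 SE at middle age (adjusted p = 0.0364) and 0.39 ± 0.20 SE in young mice, which did not pass (adjusted p = 0.11). The middle-aged call was lost in 7 of 20 alternatives, among them each omission of a middle-aged pool other than naïve replicate 2 (0.43 to 0.54, adjusted p = 0.0592 to 0.107). Scaled by library totals alone, the young value was 0.58 (adjusted p = 0.0186).

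Mgll (chromosome 6, 88724412 to 88828360, plus strand) encodes monoacylglycerol lipase, which takes off the last fatty acid and is also the main brain enzyme that breaks down the endocannabinoid 2-arachidonoylglycerol. The young naïve pools held 104.7, 112.3 and 146.6 CPM and the young injured pools 34.9, 45.6 and 47.7 CPM. The middle-aged naïve pools held 52.7, 51.8 and 58.1 CPM and the middle-aged injured pools 24.1, 23.2 and 22.4 CPM. The 4 groups did not overlap at all, and the young injured pools lay just under the middle-aged naïve ones. After injury Mgll fell by 1.504 ± 0.153 SE on the log2 scale in young mice (adjusted p = 1.33e-06) and by 1.23 ± 0.16 SE in middle-aged mice (adjusted p = 1.05e-05). The antisense gene Gm26588, which shares exon bases with Mgll, had at most 26 counts in a pool. Beside the falls of Mgll, Dgat2 and Plin3, the summed level of the 5 oligodendrocyte markers was 40030 to 44130 CPM in young naïve and 10260 to 10430 CPM in young injured pools. It was 26890 to 32590 CPM in middle-aged naïve and 4556 to 7097 CPM in middle-aged injured pools. The 4 neuron markers summed to 680.8 to 1976 CPM in young naïve, 1167 to 1239 in middle-aged naïve, 274.8 to 479.7 in young injured and 363.1 to 445.6 in middle-aged injured pools. Of these 4, 2 fell and none rose in young mice, while 3 fell and 1 rose in middle-aged mice. The part of these cells in the falls was not tested.

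**Figure D2:**
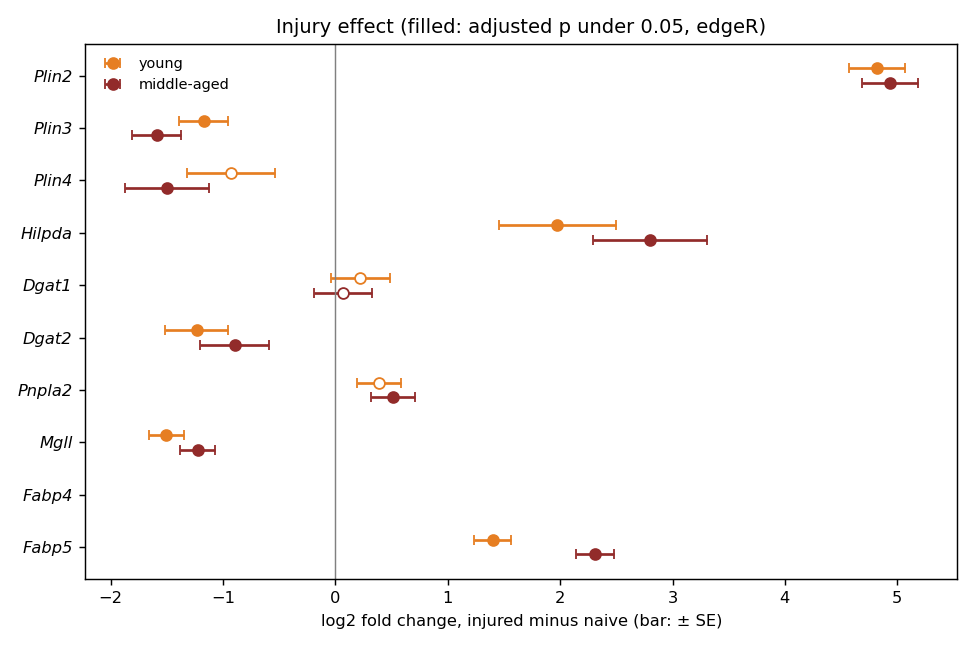
Log2 fold change with injury (injured minus naïve, horizontal axis) of 9 genes in young and middle-aged mice, from edgeR; bars are ± SE and filled points have an adjusted p under 0.05. Fabp4 is left blank because its naïve pools were at or under the floor of 3 counts; Plin2 stands at 4.82 and 4.94, and Dgat1 at 0.22 and 0.07.

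Of the fatty acid binding proteins, Fabp4 went from near absence to a clear signal. Fabp4 encodes aP2, a carrier known from adipocytes and macrophages, though not from these alone (chromosome 3, 10204088 to 10208576, minus strand). It had 0 counts in each of the 3 young naïve pools, which at this depth allows up to 0.323 CPM, and 3, 1 and 1 counts in the middle-aged naïve pools. In young injured pools it had 406, 394 and 393 counts (29.8, 30.5 and 29.6 CPM). In middle-aged injured pools it had 741, 566 and 639 counts (61.5, 45.2 and 55.2 CPM). A transcript at or below the floor in all 6 naïve pools was thus present at 393 counts or more in all 6 injured pools. The mean of the young injured pools was at least 92.9-fold higher than the floor of 3 counts in 1 library. In middle-aged mice the injured to naïve ratio was 349, with a 95% exact interval of 149 to 1077 that covers counting error only. These values are a description, since a gene kept by the filter through its injured pools alone had to differ.

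The adipocyte markers Plin1 and Cidec were at 0 in all pools but young injured replicate 1, where they had 1 and 7 counts and Fabp4 had 406. The other 2 young injured pools had Fabp4 at 394 and 393 counts. In young injured replicate 1 the 5 adipocyte markers summed to 15 counts, the most of any pool, so other genes of the 5 were present there too. Those other genes had up to 3 counts in a middle-aged naïve and up to 2 in a middle-aged injured pool. A part of adipocytes in the Fabp4 counts was not tested. The Fabp9 and Fabp12 genes beside Fabp4 had 0 counts in all 12 pools. Over the injured pools the pan-myeloid markers summed to 1373 to 1394 CPM in young and 1461 to 1950 CPM in middle-aged mice, against 71.8 to 102.0 and 109.7 to 147.2 CPM in naïve pools. The 5 endothelial markers summed to 190.2 to 241.8 CPM in young injured and 249.1 to 291.6 CPM in middle-aged injured pools. In naïve pools they held 136.6 to 186.9 CPM in young and 202.3 to 238.7 CPM in middle-aged mice. With injury 3 of these 5 rose and none fell in young mice, while 3 rose and 1 fell in middle-aged mice. The part of myeloid or endothelial cells in the rises of Plin2, Hilpda, Fabp4 and Fabp5 was not tested.

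Fabp5, the carrier of skin, brain and macrophages (chromosome 3, 10012548 to 10016607, plus strand), had the highest level per transcript length of the 10 in all 4 groups. It had 346.3, 441.3 and 439.0 CPM in young naïve and 999.1, 1239 and 998.1 CPM in young injured pools. It had 288.3, 409.3 and 293.9 CPM in middle-aged naïve and 1903, 1476 and 1536 CPM in middle-aged injured pools. The naïve pools of the 2 ages overlapped, all injured pools were above them, and the middle-aged injured pools were above the young injured ones. Fabp5 rose by 1.40 ± 0.16 SE (log2) in the young (adjusted p = 5.27e-06) and by 2.31 ± 0.17 SE at middle age (adjusted p = 4.01e-08). Of its sequence positions 9.27% were shared with other genes, mostly the pseudogene Gm6166, which had at most 303 counts in a pool. The 17 sharing genes found in the count table together had at most 8057 counts in a pool. Fabp5 and Fabp4 lie 187480 bases apart. The log2 ratio of Fabp5 to Fabp4 counts was 4.80 to 5.34 in the 6 injured pools. In naïve pools, with Fabp4 at 0 to 3 counts, it is set largely by the 0.5 added to each count and is not given.

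Per kilobase of the longest coding transcript, the order of the 10 changed with injury. This sets levels of different genes side by side only roughly, since the counts are per gene and of amplified reads. For Fabp4 that transcript has 896 bases, against 4489 bases in all its exons. The place of Fabp4 in injured tissue therefore depends on the length used. In young naïve tissue the mean level was 414.3 CPM per kb for Fabp5, 30.4 for Mgll, 22.5 for Plin3 and 11.9 for Plin2. Next came Dgat2 at 5.89, Dgat1 at 3.69, Pnpla2 at 3.31, Hilpda at 1.95 and Plin4 at 0.775 CPM per kb, with Fabp4 at 0. The pools of Mgll and Plin3 overlapped, as did those of Dgat1 and Pnpla2. In young injured tissue Plin2 was second, at 335 CPM per kb after 1093 for Fabp5, and Fabp4 was the third at 33.5. Mgll (10.7) and Plin3 (9.96), whose pools overlapped, followed, then Hilpda (7.69), Pnpla2 (4.33) and Dgat1 (4.30), which overlapped too, Dgat2 (2.50) and Plin4 (0.403). In middle-aged injured tissue the same 3 genes led, at 1660, 499.9 and 60.2 CPM per kb, and Hilpda came next at 16.4.

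**Figure D3:**
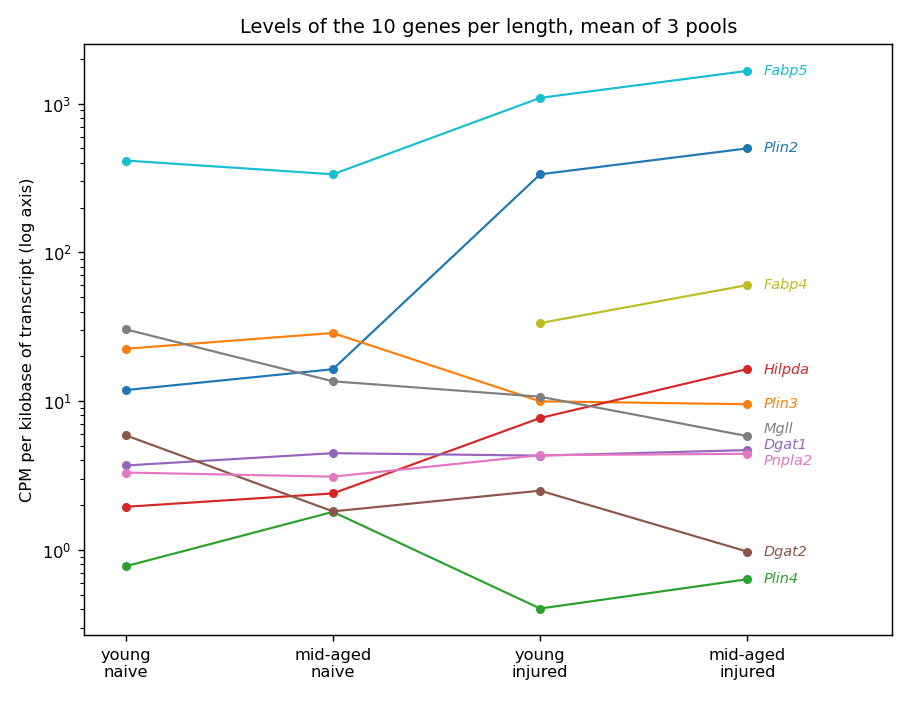
Mean level of the 10 genes in CPM per kilobase of transcript (log axis) in the 4 groups, 3 pools each; lines join the means of a gene only to guide the eye, and Fabp4 is not drawn where its pools were at or under 3 counts. Plin2 goes from 11.9 and 16.4 in naïve to 335 and 499.9 in injured tissue, and Dgat2 falls from 5.89 in young naïve to 0.972 in middle-aged injured tissue.

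Age was compared within naïve and within injured tissue. These contrasts share their pools with the injury contrasts, so the values are given side by side only. In naïve tissue Dgat2 and Mgll fell with age and none of the 10 rose, where 1.78% of all genes tested fell and 2.02% rose. At an unadjusted p under 0.05 the count was 4 of 10, where 18.3% of all genes stood, and DESeq2 called 1 higher, Plin4. DESeq2 called 611 of all genes higher in this contrast, against 321 with edgeR. Dgat2 fell from a mean of 13.3 ± 0.508 to 4.10 ± 1.29 CPM (SD, n = 3; log2 difference -1.69 ± 0.29 SE, edgeR adjusted p = 0.00511). Mgll fell from 121.2 ± 22.3 to 54.2 ± 3.39 CPM (SD, n = 3; -1.16 ± 0.15 SE, edgeR adjusted p = 0.00108). For both genes every middle-aged naïve pool lay below every young naïve pool; the pools of the 2 ages did not overlap for 17.1% of all genes. The 2 calls held in all 20 alternatives, with adjusted p-values up to 0.047 for Dgat2 and 0.0289 for Mgll.

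Plin4 had the highest positive age value in naïve tissue after Fabp4, which had at most 3 counts in any naïve pool of either age, so that no fold with age is given there. Its middle-aged pools lay above the young ones, and its log2 difference of 1.22 ± 0.37 SE did not pass (adjusted p = 0.092). Plin2 differed by 0.47 ± 0.23 SE (adjusted p = 0.291), Plin3 by 0.35 ± 0.21 SE (adjusted p = 0.407) and Fabp5 by -0.31 ± 0.16 SE (adjusted p = 0.335). The median of the 10 was 0.28, beside 0.013 over all genes. In the same contrast 2 of 5 oligodendrocyte markers fell and 4 of 6 pan-myeloid markers rose. The part of the oligodendrocyte markers in the lower Dgat2 and Mgll was not tested.

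In injured tissue Dgat2 and Mgll were again lower in middle-aged mice, and Fabp4 was higher, where 0.908% of all genes fell and 0.24% rose with age. Dgat2 fell from 5.65 ± 1.44 to 2.20 ± 0.659 CPM (SD, n = 3; log2 difference -1.35 ± 0.30 SE, edgeR adjusted p = 0.0448). Mgll fell from 42.7 ± 6.87 to 23.2 ± 0.857 CPM (SD, n = 3; -0.88 ± 0.16 SE, edgeR adjusted p = 0.0121). Fabp4 rose from 29.98 ± 0.497 to 54.0 ± 8.22 CPM (SD, n = 3; 0.85 ± 0.18 SE, edgeR adjusted p = 0.0448). None of the 3 genes had overlapping pools, as was so for 23.3% of all genes. These calls are near the threshold and were lost without single pools. The Dgat2 call was lost without any one of 9 pools (all but the middle-aged naïve ones; adjusted p = 0.0591 to 0.271). The Mgll call was lost without young injured replicate 2 or 3 or any middle-aged injured pool (adjusted p = 0.0553 to 0.105). The Fabp4 call was lost without any one of the 6 injured pools or young naïve replicate 2 (adjusted p = 0.0585 to 0.258). With the replicate number as a block the Fabp4 value was 0.84 (adjusted p = 0.0655). Beside these values, 4 of 5 oligodendrocyte markers fell with age in injured tissue and none of the 6 pan-myeloid markers rose. Their part was not tested.

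The remaining genes did not pass in injured tissue. Hilpda had a log2 difference of 1.09 ± 0.46 SE (adjusted p = 0.407), Plin4 0.65 ± 0.39 SE (adjusted p = 0.719), Fabp5 0.60 ± 0.16 SE (adjusted p = 0.104) and Plin2 0.58 ± 0.21 SE (adjusted p = 0.286). For Plin2, Hilpda and Fabp5 the middle-aged pools lay wholly above the young pools. When only the 6 injured pools were fitted, Plin2 (0.58, adjusted p = 0.0361), Hilpda (1.09, adjusted p = 0.0112) and Fabp5 (0.60, adjusted p = 0.0203) passed as well. That fit also called more of all genes, 325 higher and 493 lower, against 38 and 144 in the main fit. The median of the 10 was 0.35, beside 0.0022 over all genes.

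**Figure D4:**
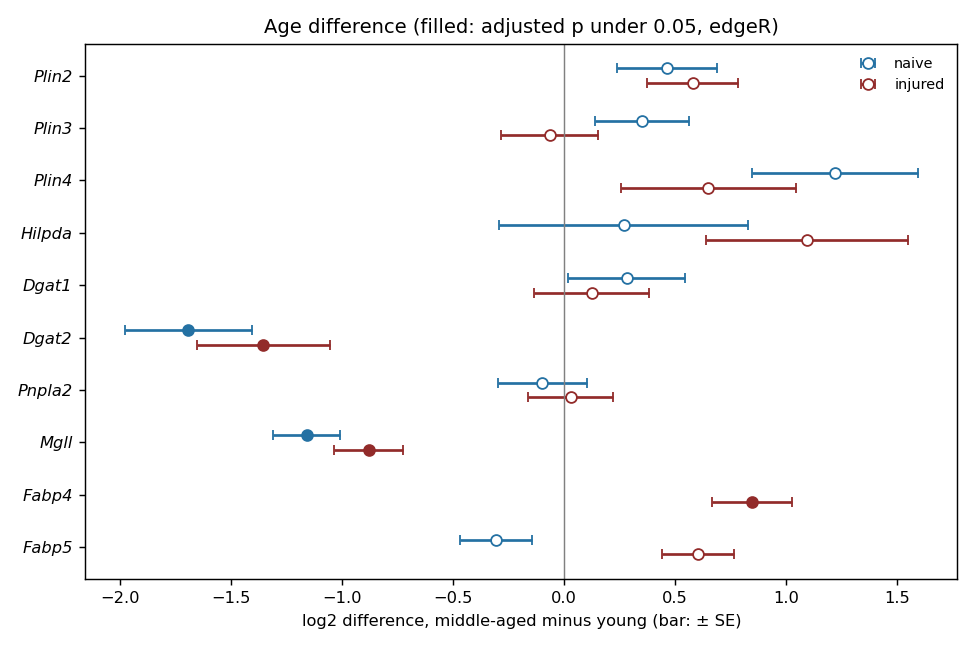
Log2 difference with age (middle-aged minus young, horizontal axis) of the 10 genes in naïve and injured tissue, from edgeR; bars are ± SE and filled points have an adjusted p under 0.05. Dgat2 and Mgll are filled and negative in both tissues, at -1.69 and -1.35 and at -1.16 and -0.88, and Fabp4, drawn for injured tissue only, is at 0.85.

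The difference between the 2 injury effects was tested as an interaction. None of the 10 genes passed (edgeR), where 0.0567% of all genes tested passed as higher and 0.0819% as lower. At an unadjusted p under 0.05 there were 2 of the 10, beside 9.92% of all genes. The nearest was Fabp5, whose injury effect was larger in middle-aged mice by 0.91 ± 0.23 SE on the log2 scale (adjusted p = 0.145). DESeq2 called Fabp5 (0.92, adjusted p = 0.0187), and so did edgeR without middle-aged naïve replicate 2 (1.095, adjusted p = 0.0318) and without the filter on low counts (0.92, adjusted p = 0.00438). Of all genes, these settings called 103, 21 and 81 higher, in that order, against 9 in the main fit. The interaction was 0.82 ± 0.72 SE for Hilpda (adjusted p = 0.777) and 0.11 ± 0.31 SE for Plin2 (adjusted p = 0.947). It was 0.34 ± 0.42 SE for Dgat2 (adjusted p = 0.854) and 0.28 ± 0.22 SE for Mgll (adjusted p = 0.731). The other gene at an unadjusted p under 0.05 was Fabp4, whose fitted interaction, set against 0 counts in the young naïve pools, is not given.

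The other genes of the pathway were taken from 9 lists. Their counts stand beside all genes tested, of which 28.3% rose and 26.3% fell with injury in young mice. In middle-aged mice these shares were 29.2% and 29.3%. No list was tested against these shares, so the counts of each list are a description. Of 14 other droplet proteins, 10 were tested, and 5 fell and none rose at each age. The median log2 fold change of those tested was -0.43 in young and -0.32 in middle-aged mice. Those named by the rule were Cidea, which promotes the fusion of droplets (18 to 46 counts in naïve and 2 to 10 in injured pools, and kept by the filter through the naïve pools alone), and Spg20, the gene of spartin, which fell from 182.3 ± 33.9 to 62.0 ± 3.43 CPM in young mice (SD, n = 3). Plin2 and Hilpda thus rose while no tested gene of this list did.

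Of 14 genes of triglyceride synthesis, 11 were tested, and 3 rose and 4 fell at each age. Agpat2, an acyltransferase of the second step, rose most, from 1.99 ± 1.04 to 17.6 ± 2.02 CPM in young and from 4.77 ± 2.23 to 24.8 ± 1.48 CPM at middle age (SD, n = 3). The phosphatidic acid phosphatase gene Lpin2 rose by 0.58 and 0.41 (log2) in young and middle-aged mice. Agpat4 and Agpat3, of the same family as Agpat2, fell by 2.02 and 1.01 on the log2 scale in young mice. Genes of one acyltransferase family therefore moved in both directions.

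For fatty acid uptake and activation, 12 of 13 genes were tested. In young mice 6 rose and 5 fell, and in middle-aged mice 5 rose and 5 fell. One of the 6, Slc27a3, passed the filter through injured pools alone. The uptake receptor Cd36 had 6 to 8 counts in young naïve and 15 to 21 in middle-aged naïve pools, and 3116 to 3938 and 5213 to 6639 counts after injury (log2 fold change 8.62 ± 0.21 SE and 8.23 ± 0.20 SE). Lpl, whose product frees fatty acids from lipoproteins, rose from 74.6 ± 4.85 to 1276 ± 132.3 CPM in young mice (SD, n = 3). Acsl3, the acyl-CoA synthetase of nascent droplets, fell from 204.2 ± 6.24 to 50.4 ± 5.27 CPM in young mice (SD, n = 3), and Acsl6 fell too (-1.70 ± 0.16 SE). Cd36 was also higher with age in naïve (1.31 ± 0.30 SE, adjusted p = 0.0299) and in injured tissue (0.92 ± 0.13 SE, adjusted p = 0.00401). Acsl3 was lower with age in naïve (-0.67 ± 0.14 SE, adjusted p = 0.0192) and in injured tissue (-0.78 ± 0.15 SE, adjusted p = 0.0184). Of the list, Lpl was also higher with age in naïve tissue (0.85 ± 0.13 SE), and Acsl1 (-0.53 ± 0.14 SE) and Acsl4 (-0.49 ± 0.12 SE) were lower.

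Of 8 genes of lipolysis and its control, 6 were tested, and 2 rose and 4 fell in young mice against 2 and 2 in middle-aged mice. The genes that rose were Lipa, the lysosomal acid lipase, from 84.2 ± 3.06 to 677.6 ± 47.9 CPM in young mice (SD, n = 3), and Angptl4, an inhibitor of Lpl, from 4 to 28 counts in naïve to 204 to 391 counts in injured pools. Lipe, the hormone-sensitive lipase that acts between ATGL and Mgll, fell by 0.87 in young and by 0.79 in middle-aged mice (log2), and Pnpla3, which passed the filter through naïve pools alone, fell by 2.66 and 3.11. Of the cytoplasmic chain, Lipe and Mgll thus fell, whereas Pnpla2 had positive values at both ages and rose in middle-aged mice. Abhd5, the activator of ATGL, fell in young mice (-1.03 ± 0.15 SE) and was lower with age in naïve tissue (-0.72 ± 0.15 SE, adjusted p = 0.0171). Agpat5 of the synthesis list was also lower with age in naïve tissue (-0.66 ± 0.14 SE, adjusted p = 0.0161).

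All 6 genes of 2-arachidonoylglycerol handling were tested, and 2 rose and 1 fell at each age. Abhd6, a further hydrolase of this lipid, fell with injury, as Mgll did (31.3 ± 6.03 to 15.3 ± 0.471 CPM in young mice, SD, n = 3), while the hydrolase gene Abhd12 rose by 0.45 and 0.43 (log2) in young and middle-aged mice. The cannabinoid receptor gene Cnr2, known from immune cells, went from 3 to 10 counts in young naïve and 11 to 72 in middle-aged naïve pools to 215 to 295 counts in injured pools. Of the 3 genes of sterol ester turnover, Soat1 and Nceh1 rose at both ages. Soat1, which esterifies cholesterol, went from 97.6 ± 7.90 to 576.7 ± 29.7 CPM in young and from 106.5 ± 6.98 to 746.3 ± 24.0 CPM at middle age (SD, n = 3). Nceh1, a sterol ester hydrolase, rose by 1.80 and 2.49. Soat2 had 0 to 2 counts in naïve and 9 to 20 in injured pools and was kept by the filter through the injured pools alone.

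Of 8 other fatty acid binding proteins only Fabp3 and Fabp7 were tested. Fabp7, the carrier of glial precursors and astrocytes, rose (log2 fold change 1.35 in young and 1.52 in middle-aged mice). Fabp3 had 0.33 and 0.13 and did not pass. Among 10 lipid-responsive regulators 4 rose and 3 fell in young mice and 3 rose and 2 fell in middle-aged mice. Of the 3 that fell in young mice, Ppara passed the filter through naïve pools alone. Cebpa, a factor of adipocyte and myeloid cells, rose from 9.75 ± 0.319 to 129.8 ± 11.3 CPM in young mice (SD, n = 3), and Pparg from 4 to 14 counts in naïve to 27 to 85 in injured pools. Ppargc1a, a coactivator of mitochondrial genes, fell by 1.58 and 1.42. Mlxipl was higher with age in naïve tissue (1.99 ± 0.49 SE, adjusted p = 0.0397). Of 11 genes listed as hypoxia-inducible, among them the regulator Hif1a itself, 5 rose at each age and 3 fell in young and 2 in middle-aged mice. Car9, one of the 5, had 0 counts in all 6 naïve and 24 to 42 in all 6 injured pools and so could only be called higher. Hif1a rose by 1.48 and 2.04, while Ndrg1 fell by 1.70 and 2.55 and Bnip3 by 0.59 and 0.70. Genes of this list moved in both directions, as did all genes tested (28.3% rose and 26.3% fell in young mice). The part of low oxygen in the rise of Hilpda was not tested.

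**Figure D5:**
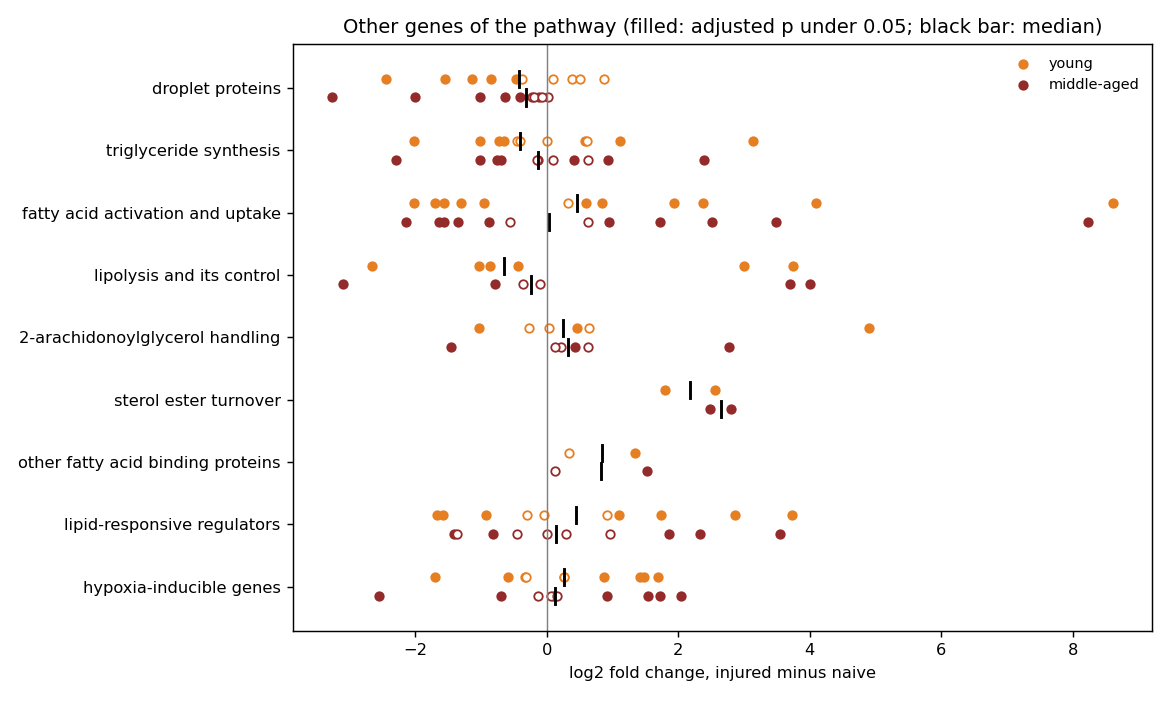
Log2 fold change with injury (injured minus naïve, horizontal axis) of 69 other tested pathway genes by list, young above and middle-aged below; filled points have an adjusted p under 0.05 (edgeR) and black bars are medians of the points drawn. Soat2 and Car9 are left out because no naïve pool had more than 3 counts; Cd36 lies farthest right at 8.62 and 8.23, and both sterol ester genes drawn lie right of 0 at both ages.

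For each of the 10 genes the closest profiles over the 12 pools were sought among all tested genes, by the root mean square (RMS) distance between log2 CPM values centred on each gene's mean. Plin2 was closest to Lat2 (RMS 0.28), an adaptor of myeloid and B cells, and to Ctsc (0.32), a lysosomal protease. Fabp4 was closest to Chil3 (0.42), a product of macrophages, and F7 (0.47). In its naïve pools, at or under 3 counts, the Fabp4 profile is set largely by the small count added before the logarithm. Its neighbours follow in part from that floor. Mgll was closest to Elovl6 (0.16), a fatty acid elongase, and Tenm4 (0.18), and Dgat2 to Gsn (0.29), an actin-severing protein, and Shisal1 (0.35). Hilpda was nearest to Dok1 (0.38) and Gldn (0.48), Fabp5 to Rnf149 (0.16) and Spg21 (0.20), Plin3 to Map7d1 (0.13) and Mapk8ip3 (0.17), and Plin4 to Plekhm2 (0.41) and Depdc7 (0.44). Pnpla2 was nearest to Clp1 (0.10) and Klf16 (0.11), and Dgat1 to Polr1a (0.17) and Cd47 (0.18). None of these neighbours was a gene of the 9 lists.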

How the data were processed

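The authors checked reads with FastQC 0.11.4, mapped them to GRCm38 with TopHat2 2.0.10 and Bowtie 1.1.2, and deposited raw counts per gene from featureCounts. The annotation release, strand setting and handling of shared reads are not given in the sources used here. Groups and replicate numbers came from the sample labels, ages from the study's methods. Symbols were matched for 45143 of 46078 identifiers (98.0%); positions, overlaps and shared 31-base words came from GENCODE on GRCm38, promoters from RefSeq.

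The test was edgeR 4.0.16 under R 4.3.3 (TMM, filterByExpr, glmQLFit, glmQLFTest; 1 coefficient per group, no covariates), and p-values were Benjamini-Hochberg adjusted over the 15866 genes tested (threshold 0.05). Alternatives were 3 other scalings, 2 other filters, DESeq2 1.42.0 (the study's tool, here fitted with the same design), only the pools compared, a replicate block and each pool left out. Ratios used a pseudocount of 0.5, alternatively 5, and exact permutation within ages. No pair of pools agreed within sampling noise (chi-square per degree of freedom 7.48 to 35.7). Counts are of amplified reads, so intervals and floors cover counting error only, and spread within a pool was not measured. In simulated counts for injury in young mice over 15529 genes, edgeR recovered 91.5% of 200 genes changed 4-fold, with 5.18% false calls. For the injury by age difference it recovered 77.5%, with 5.49% false. DESeq2 gave 15.9% and 18.9% false calls in the 2 simulations. The 200 genes were changed up and down alike in the young injured group only, with the spread that edgeR had estimated. In the real injury contrasts a far larger part of all genes was called. These rates therefore do not carry over to the real contrasts and do not rank the 2 tools.

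The 10 genes, the lists and the markers were chosen with earlier results of these data known. Named were the 10 genes; from each list, the 2 highest and 2 lowest injury effects at most among genes called alike at both ages, and any called in an age or interaction contrast; and the 2 closest profiles of each gene (mean log2 CPM of at least 1, prior count 2). Nceh1, Fabp3, Slc27a3, Ppara, Plin1, Plin5, Cidec, Fabp9 and Fabp12 were named outside this rule after their values were seen. Some results of the marker lists are not reported here.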

Additional observations from a re-analysis of the deposited data

How the results depend on the processing

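No log2 fold change of a called gene reversed its sign under any alternative. Of the 989 alternative values of the 10 genes, 937 kept their side of the threshold, 34 lost a call and 18 gained one. The Plin2 to Plin3 and Dgat2 to Dgat1 ratios kept their calls in all alternatives run. Counts of the 10 genes called in the injury contrasts stayed within 1.5 times. The number higher with age in naïve tissue was 0, and 1 without the low-count filter and 1 with DESeq2. In injured tissue the number higher with age was 1, and 0 with library totals alone, 3 without the filter, 2 with DESeq2, 4 with only the pools compared, 0 with the replicate block and 0 to 2 with a pool left out. The number lower with age there was 2, and 0 to 2 with a pool left out. For the injury by age difference the number higher was 0, and 1 without the filter, 1 with DESeq2 and 0 to 1 with a pool left out. The cause of these changes was not tested.

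The replicate numbers did not pair the pools: deviations of same-numbered pools correlated at -0.113 to 0.153. The replicate block ended 1 call of the 10 genes, that of Fabp4 with age in injured tissue.

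Over all genes, counts higher and lower with age ranged over the alternatives from 26 to 717 and 45 to 500 in naïve tissue (main 321 and 282), and from 6 to 325 and 38 to 493 in injured tissue (main 38 and 144). For the injury by age difference they ranged from 1 to 103 and 2 to 248 (main 9 and 13). Library totals alone moved the median of all genes by 0.20 in the young and 0.11 in the middle-aged injury contrast (log2), and the share of higher calls in the young contrast from 51.8% to 62.4%. Apart from Fabp4 near the floor, the largest errors were those of Hilpda and Plin4, and depth limits what can be said of Dgat1 and Pnpla2.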
